A study of Homo sapiens with 6 samples.

Results

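Control cells of the human line K562 were described from 3 RNA sequencing libraries, which are all the libraries labelled as wild type among the 6 of the series. The other 3 libraries came from K562 cells over-expressing IRAIN, a long noncoding RNA transcribed from the IGF1R locus, in a study of drug resistance in chronic myeloid leukaemia, and no control value below is compared with them. The labels give no treatment, time or culture for the controls and call them wild type, whereas the columns of the count table call the same libraries vector, so whether these cells carried an empty vector is not settled by the labels. The labels do not state separate cultures for these libraries, so the spread between them may be technical. They are called control libraries 1, 2 and 3 by their column number, and values written as mean ± SD are over these 3 libraries (n = 3).

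K562 is an established line from a chronic myeloid leukaemia in blast crisis. It carries the BCR-ABL1 fusion kinase, which signals through adaptors such as CRKL and GRB2 to STAT5, RAS and PI3K, and it is widely used as a model of early red cell development because it makes embryonic and fetal globins. In the red cell lineage GATA1, TAL1, LMO2, LDB1 and KLF1 work together at the promoters and enhancers of globin, heme and membrane genes.

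The control libraries held 11893872, 12237415 and 11949606 counts in genes. Of 58440 gene identifiers in the table, 16085 (27.5%) reached 1 count in 1000000 (CPM) in each library and are called detected here, 25353 (43.4%) had no count in any library, and 17002 lay between. Among 19910 protein-coding genes, 11751 (59.0%) were detected and 3911 (19.6%) were at 0. A gene at 0 in all 3 libraries could still have had up to 0.0831 CPM, the level of 3 counts over the group, which covers counting error only. Counts were spread over many genes: the 10 most abundant took 5.73% ± 0.0943 of each library and the 100 most abundant 15.5% ± 0.126, while 1268 to 1276 genes were needed to reach 50% of the counts. The 48 genes at 1000 CPM or more carried 11.3% of the counts, 2508 genes between 100 and 1000 CPM carried 55.2%, and 6088 genes between 1 and 10 CPM carried 2.33%.

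MALAT1, a nuclear long noncoding RNA on chr11:65497688-65506516, had the most counts, with 19880, 19900 and 19390 CPM in libraries 1, 2 and 3. These 3 values lay close together, with library 3 the lowest, though their spread exceeded counting error (adjusted p = 8.07e-20, Poisson goodness of fit in edgeR). The mitochondrial mRNA MT-CO1, a core subunit of cytochrome c oxidase, followed at 7844 ± 226 CPM. Next came the translation elongation factors EEF1A1 at 6779 ± 55.5 CPM and EEF2 at 4541 ± 45.5 CPM. RN7SL2, an RNA component of the signal recognition particle, had 3311, 4055 and 3627 CPM, so library 2 was the highest and library 1 the lowest. The cytosolic chaperone gene HSP90AB1 had 3537 ± 32.9 CPM. MT-ND4 had 3317 ± 277 CPM, MT-CO2 2786 ± 267 CPM and MT-ND5 2746 CPM, all subunits of the respiratory chain. The counts ignore strand, so the rank of MT-ND5 is uncertain. In the only library with counts by strand, an over-expression library, 67.7% of its reads lay on the strand opposite to the gene. NEAT1, the scaffold RNA of nuclear paraspeckles, closed the 10 most abundant genes at 2376 ± 47.9 CPM. Among the next genes were PRKDC, the catalytic subunit of the DNA-dependent protein kinase, at 2314 ± 17.0 CPM, and GLUL, which encodes glutamine synthetase, at 2241 ± 21.5 CPM.

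**Figure D1:**
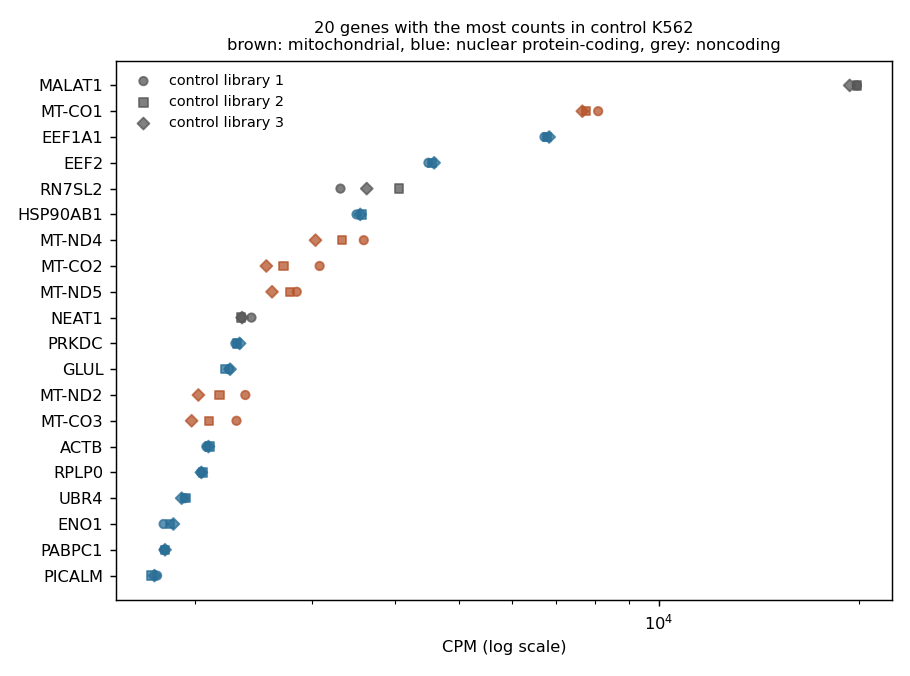
CPM (log scale) of the 20 genes with the most counts, 1 symbol for each control library, coloured by origin. MALAT1 stood at 19390 to 19900 CPM, the symbols of nuclear coding genes such as EEF1A1 nearly coincided, and for MT-ND4, MT-CO2, MT-ND2 and MT-CO3 library 1 was the highest and library 3 the lowest.

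CPM favours long transcripts, so genes were compared with each other per kilobase of merged exons, scaled to a fixed total (TPM). On that scale RN7SL2, only 300 bases long, stood at 43980 ± 4345 TPM, MT-CO1 at 18320 ± 514 TPM and MALAT1 at 8045 ± 84.1 TPM. The highest nuclear protein-coding gene was HIST1H1C, a linker histone, at 6753 ± 222 TPM. HSP90AB1 (4275 ± 40.1 TPM), EEF1A1 (4105 ± 47.6 TPM) and EEF2 (4061 ± 53.3 TPM) followed, with EEF1A1 above EEF2 in each library. With the length of the longest transcript in place of merged exons the order was EEF1A1 (4271 TPM), EEF2 (4015 TPM) and HSP90AB1 (3701 TPM), so this order rests on the length used. The light chain of ferritin, FTL, reached 3893 ± 119 TPM, above the core histone genes HIST1H3B (3601 ± 34.8 TPM), HIST1H2BK (3348 ± 94.0 TPM) and HIST2H2AC (2562 ± 120 TPM). Ribosomal protein RPS12 (2236 ± 82.0 TPM), ACTB (2141 ± 13.3 TPM) and the chromatin architectural factor HMGA1 (1982 ± 20.4 TPM) were also among the highest, and ACTB (2607 TPM) was above RPS12 (2085 TPM) with the longest transcript. For scale, the median was 27.2 TPM over detected protein-coding genes and 5.36 TPM over all of them, and the highest 1 in 100 stood above 396 TPM.

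The erythroid regulators were expressed in the controls. Of 15 such genes, 13 were detected (86.7%, against 59.0% of all protein-coding genes), with a median of 45.6 TPM. GATA1, the master regulator of the red cell and megakaryocyte lineages on chrX:48786554-48794311, had 485, 500 and 495 TPM in libraries 1, 2 and 3, above 99.3% of protein-coding genes. MYB, which keeps progenitors dividing, stood at 303 ± 7.29 TPM and NFE2, a globin enhancer factor, at 273 ± 8.95 TPM. LDB1, the bridging protein of the GATA1 complex, had 179.5 ± 5.16 TPM and KLF1, the activator of red cell genes, 174 ± 1.5 TPM. TAL1 had 94.2 ± 0.699 TPM, its partner LMO2 38.0 ± 3.19 TPM, the GATA1 cofactor ZFPM1 28.5 ± 1.05 TPM and the erythropoietin receptor EPOR 21.1 ± 1.93 TPM. SOX6 was the lowest detected member at 5.98 ± 0.0216 TPM. BCL11A, the repressor of fetal globin genes, had no count in any library, and RUNX1T1 had none either. In bulk RNA a low level in all cells and a high level in few cells cannot be told apart.

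Promoter sequences of erythroid-list genes are shown because GATA1 was among the highest regulators and its DNA letters can be looked for in them. RefSeq windows on GRCh38.p14, from 250 bases before to 50 bases after each annotated start, were at hand for 38 of the 57 detected members of the regulator, membrane, globin, heme and iron lists, and a stretch of 180 bases is printed 5′ to 3′ on the strand of the gene. Capitals mark AGATAA or its reverse complement TTATCT, searched on both strands within the 250 bases before the start.
TAL1 promoter, chr1:47232336-47232515, minus strand: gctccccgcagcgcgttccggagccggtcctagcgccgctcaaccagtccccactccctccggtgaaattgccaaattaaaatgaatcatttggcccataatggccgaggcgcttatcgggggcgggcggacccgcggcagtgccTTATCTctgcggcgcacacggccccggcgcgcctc
EPOR promoter, chr19:11384315-11384494, minus strand: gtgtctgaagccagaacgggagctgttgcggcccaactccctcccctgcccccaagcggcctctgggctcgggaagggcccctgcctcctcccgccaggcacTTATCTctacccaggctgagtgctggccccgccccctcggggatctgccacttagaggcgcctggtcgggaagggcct
ALAS2 promoter, chrX:55030978-55031157, minus strand: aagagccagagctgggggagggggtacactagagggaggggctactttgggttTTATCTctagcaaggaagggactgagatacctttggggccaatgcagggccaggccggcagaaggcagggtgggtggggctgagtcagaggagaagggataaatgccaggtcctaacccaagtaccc
HBD promoter, chr11:5234484-5234663, minus strand: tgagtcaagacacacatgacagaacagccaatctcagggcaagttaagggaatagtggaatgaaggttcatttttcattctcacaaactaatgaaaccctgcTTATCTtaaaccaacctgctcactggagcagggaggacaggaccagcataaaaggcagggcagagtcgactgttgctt
RHAG promoter, chr6:49636840-49637019, minus strand: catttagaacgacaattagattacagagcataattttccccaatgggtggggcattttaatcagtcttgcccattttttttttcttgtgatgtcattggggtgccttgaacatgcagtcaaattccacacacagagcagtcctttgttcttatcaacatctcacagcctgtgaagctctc
The printed genes were chosen by name, and only the first window of each is shown. The windows shown of TAL1, EPOR, ALAS2 and HBD each held 1 match, in the reverse orientation, and a second TAL1 window held none. The window of RHAG, the highest of the membrane genes, held no match to the letters searched. It does hold TTATCA, which differs from TTATCT in its last letter, and such other forms of the GATA letters were not counted. A gene can have several starts, and the members had more windows per gene (1.58) than all genes of the table (1.29), so shares were taken over windows. The GATA letters were in 17 of the 60 windows of detected members (28.3%) and in 3219 of all 35116 windows (9.17%). Windows of 1 gene can overlap, as those of RHD do, so 1 match can count in more than 1 window. The CACCC letters CCACCC or GGGTGG, which KLF1 can bind, were in 28.3% of the members' windows and 31.3% of all windows, and CCAAT or ATTGG was in 41.7% and 32%. A match shows letters and not binding, which was not measured.

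Red cell membrane and skeleton genes were detected in 18 of 20 cases (90%), with a median of 62.7 TPM. RHAG, an ammonium channel protein that carries the Rh complex, was the highest, with 666, 658 and 654 TPM in libraries 1, 2 and 3, levels that lay within a few per cent of each other. The anchor protein ANK1 had 192 ± 4.48 TPM, the Kell-linked XK 104.5 ± 2.55 TPM and protein 4.1 (EPB41) 98.8 ± 1.85 TPM. The beta-spectrin gene SPTB had 29 ± 1.36 TPM. Glycophorin genes stood at 45.6 ± 4.48 TPM for GYPB, 87.6 ± 7.93 TPM for GYPE and 85.1 ± 4.41 TPM for GYPC. GYPB and GYPE are near-identical copies and RHD (75.9 ± 1.98 TPM) and RHCE (34.7 ± 2.12 TPM) are another such pair, so their separate levels are uncertain. Members typical of late red cells were low: the anion exchanger SLC4A1 (band 3) had 4.11 ± 0.358 TPM and its partner EPB42 1.51 ± 0.196 TPM. CD36 had 31 counts in all (0.285 ± 0.0463 TPM). ICAM4 was at 0, but every exon base of it is also annotated to another gene, and reads there were not counted.

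All 11 globin-list genes had counts, 8 were detected, and a fetal gene was the highest. HBG1, a fetal gamma-globin gene on chr11:5248079-5249859, had 202, 213 and 224 TPM. HBQ1, the theta-globin gene, had 110.2, 126 and 139 TPM, and both genes were lowest in library 1 and highest in library 3. HBG2, the other gamma-globin, had 55.9 ± 5.64 TPM, but 57.3% of its exon bases are shared with other genes and its coding sequence is nearly that of HBG1, so the split between them is uncertain. HBD (delta-globin) had 32.6 ± 3.60 TPM, HBA1 25.2 ± 1.71 TPM, HBZ (embryonic zeta-globin) 19.5 ± 1.92 TPM and HBA2 19.3 ± 2.07 TPM. The alpha-globin genes HBA1 and HBA2 are near-identical copies as well, so their levels, also beside HBQ1, are uncertain. Embryonic epsilon-globin, HBE1, had 4.97 ± 1.25 TPM with 90% of its exon bases shared. Adult beta-globin, HBB, had 14, 12 and 7 counts (2.52 ± 0.827 TPM) and missed the detection level. AHSP, the chaperone of free alpha-globin, had 18 counts in all (3.19 ± 0.478 TPM). The whole list summed to 151 to 163 CPM, or 0.0159% ± 0.000677 of the counts, beside 0.172% for the erythroid regulators. Reads on the shared bases of HBG2 and HBE1 were not counted, so the sum of the globin list is a lower bound. Its members varied more between libraries (median coefficient of variation 10.5%) than the regulators (2.72%) at their higher counts.

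Heme synthesis and iron genes were detected in 18 of 19 cases (94.7%), with a median of 83.6 TPM. FTL led the list as described. TFRC, the transferrin receptor by which cells take up iron, had 427 ± 8.89 TPM, and BLVRB, a reductase of heme breakdown products, 389 ± 11.9 TPM. SLC25A37, the mitochondrial iron importer of erythroid cells, had 151 ± 5.13 TPM. Every enzyme of the heme pathway was detected, from PPOX at 16 ± 1.52 TPM and ALAD at 17.6 ± 0.577 TPM to UROD at 211 ± 3.37 TPM, with FECH, which inserts the iron, at 83.6 ± 4.34 TPM. For the first step, ALAS1, the form used by all tissues, had 66.2, 64.1 and 61.9 TPM, and ALAS2, the erythroid form, had 44.4, 43.4 and 46.4 TPM. ALAS1 was the higher of the pair in each library. FTH1, the ferritin heavy chain, had 106 ± 8.24 TPM with 62.4% of its exon bases shared, so its level beside FTL is uncertain. HMOX1, the inducible heme oxygenase, had a single count over all libraries.

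Of 20 megakaryocyte and platelet genes, 8 were detected (40.0%) and 11 were at 0. The detected members included NFE2L2 (94.1 ± 3.91 TPM), a stress factor that many tissues use, RAB27B (85.6 ± 0.623 TPM), a GTPase of granule secretion, and TUBB1 (23.1 ± 0.251 TPM), the platelet beta-tubulin. ITGA2B, the alpha chain of the platelet fibrinogen receptor, had 13 ± 1.82 TPM, and its partner ITGB3 2.75 ± 0.368 TPM with 51.6% of its exon bases shared. GP6 (40.3 ± 3.06 TPM) and GP1BA (5.21 ± 1.35 TPM) reached the detection level, but in the only library with counts by strand, an over-expression library, 68.1% and 88.2% of their reads lay on the strand opposite to the gene. No count in any control fell on the platelet chemokines PF4 and PPBP, on VWF, SELP, GP9, CLEC1B, P2RY12, TREML1 or F13A1, or on FLI1, a transcription factor of megakaryocytes. GP1BB was also at 0, with all of its exon bases shared.

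**Figure D2:**
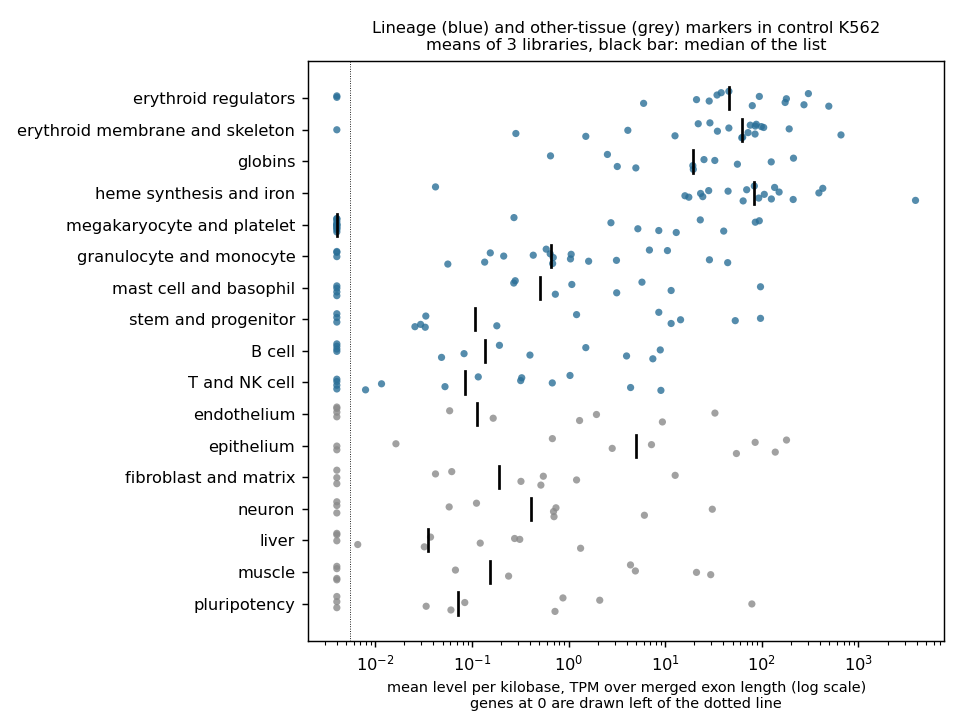
Mean TPM (log scale) of every marker gene of 10 blood-lineage lists (blue) and 7 lists of other tissues (grey), with the median of each list as a black bar and genes at 0 left of the dotted line. The erythroid regulator, membrane, globin and heme lists had medians of 19.5 to 83.6 TPM, and the other blood lists 0.665 TPM or less.

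Granulocyte and monocyte genes were detected in 6 of 20 cases (30%, median 0.665 TPM). LYZ (lysozyme) had 44.3 ± 3.32 TPM and SPI1, the transcription factor PU.1, 28.7 ± 2.03 TPM. The granule protein AZU1 had 10.6 ± 2.19 TPM and the surface receptor CD33 6.87 ± 0.0377 TPM. The defining granule enzyme MPO had 0, 1 and 1 counts, CTSG and S100A8 had none, and CEBPA, the granulocyte factor, had 18 counts in all. CD68 was at 0 with 85.8% of its exon bases shared. Among mast cell and basophil genes, 3 of 12 were detected (25.0%), GATA2 at 96.9 ± 6.87 TPM, the receptor KIT at 11.5 ± 0.822 TPM and MS4A2 at 5.75 ± 1.07 TPM, while the tryptases TPSAB1 and TPSB2, CPA3 and FCER1A were at 0. In the stem and progenitor list 6 of 14 were detected (42.9%), with ALDH1A1 at 53.1 ± 2.91 TPM, MECOM at 14.4 ± 0.947 TPM and MEIS1 at 8.59 ± 0.441 TPM. CD34, the marker of these cells, had 2, 0 and 1 counts, and FLT3, PROM1 and HOXA10 had none.

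In the B cell list 4 of 12 were detected (33.3%), and none exceeded RAG1, a V(D)J recombinase gene, at 8.89 ± 0.336 TPM. PAX5, the factor that commits cells to the B lineage, was at 0, as were MS4A1, VPREB1 and BLK. In the T and NK list 2 of 14 were detected (14.3%), CD3D at 9.03 ± 1.31 TPM and ZAP70 at 1.04 ± 0.242 TPM, whereas CD8A, CD8B, LCK and BCL11B were at 0. Over the 154 different genes of the blood-lineage lists, 83 were detected. In the library counted by strand, 1 detected member each of the granulocyte, progenitor and B cell lists had most reads on the opposite strand. The same held for 2 of the megakaryocyte list.

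A few markers of tissues outside the blood were expressed. In the epithelial list 5 of 10 were detected (50%), and the keratins KRT8 (180 ± 6.55 TPM), KRT18 (138 ± 3.09 TPM) and KRT19 (85.3 ± 3.50 TPM) and the adhesion protein EPCAM (54.6 ± 3.69 TPM) stood at levels near those of erythroid genes. CDH1, which defines epithelial junctions, had 1 count, and KRT5 and KRT14 had none. NOS3, the endothelial nitric oxide synthase, had 32.7 ± 0.211 TPM and PECAM1 9.36 ± 1.18 TPM, but CDH5 and KDR, which define endothelium, were at 0. GAD1, an enzyme of GABA synthesis, had 30.7 ± 1.40 TPM, while the neuronal genes STMN2, MAP2 and NEFL were at 0. DES (desmin) had 29.6 ± 2.39 TPM and TNNI3 21.1 ± 4.94 TPM, with no count for MYOD1, MYOG, MYH7 or TNNT2. TTN had 145 ± 3.50 CPM, with 95.1% of its reads antisense to it in the library counted by strand. COL1A2 led the fibroblast list at 12.7 ± 0.163 TPM, and LUM, FAP and POSTN were at 0. No liver gene was detected in all 3 libraries: ALB was the highest with 10, 13 and 22 counts (1.33 ± 0.567 TPM), and 1 liver gene was detected without library 1. In the pluripotency list LIN28B had 78.8 ± 3.94 TPM, while NANOG and SOX2 were at 0.

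Parts of the BCR-ABL1 pathway were expressed throughout, with 23 of 25 genes detected. The counts on BCR (chr22:23179704-23318037) were 129, 130 and 130 TPM and on ABL1 (chr9:130713946-130887675) 281, 286 and 280 TPM, with little spread. Counts per gene cannot separate the fusion transcript from the normal alleles. PIM1, a survival kinase induced by STAT5, had 1146 ± 13 TPM, the adaptor CRKL, a direct substrate of the kinase, 419 ± 4.33 TPM, and STAT5A and STAT5B 275 ± 6.11 and 215 ± 5.50 TPM. The SRC-family kinase LYN had 88.1 ± 0.843 TPM and SOCS2, a feedback inhibitor, 73.8 ± 1.88 TPM, whereas LCK had no count. Among the BCL2 family 13 of 16 were detected: the protective members MCL1 (254 ± 6.35 TPM) and BCL2L1 (89.1 ± 4.10 TPM) were high, and BCL2 itself had 0.535 ± 0.140 TPM.

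Proliferation genes were expressed, with 23 of 25 cell cycle genes detected. TOP2A had 416 ± 6.53 TPM, PCNA 347.5 ± 11.0 TPM and CCNB1 272.5 ± 10.1 TPM. Of the D cyclins, CCND2 (153 ± 2.79 TPM) and CCND3 (151 ± 4.01 TPM) did not differ beyond their SDs, and CCND1 was lower at 11.9 ± 1.47 TPM. The kinase inhibitors CDKN2C (53.2 ± 2.14 TPM), CDKN1B (50.5 ± 1.35 TPM) and CDKN1A (27.2 ± 1.24 TPM) were present, while CDKN2A and CDKN2B had no count.

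Around CDKN2A on chromosome 9p21 lay a long run of genes without counts. From chr9:20786927 to chr9:26644595 (GRCh38), 77 consecutive identifiers, 26 of them protein-coding, had no count in any control library. The run starts at a small RNA inside FOCAD, a gene with counts that reaches chr9:20995955. At 5.86 Mb this was the longest such run among those of at least 30 identifiers, ahead of runs of 5.79 Mb on chromosome 7 with no coding gene, 5.47 Mb on chromosome 11 with 18 and 5.44 Mb on chromosome 4 with 1. Its coding genes include the type I interferon cluster, KLHL9, MTAP, a methionine salvage enzyme present in most tissues, CDKN2A and CDKN2B, DMRTA1, ELAVL2 and TUSC1. Genes at its ends had counts: FOCAD had 73, 78 and 74 counts (6.24 ± 0.122 CPM), MLLT3 72, 92 and 80 counts (6.75 ± 0.732 CPM), and on the other side CAAP1 had 215, 218 and 262 counts (19.3 ± 2.29 CPM) and PLAA 477, 494 and 474. For MTAP and KLHL9, genes with few or no shared exon bases (9.60% and 0%), 0 counts over the group allow up to 0.0831 CPM. DNA was not measured.

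**Figure D3:**
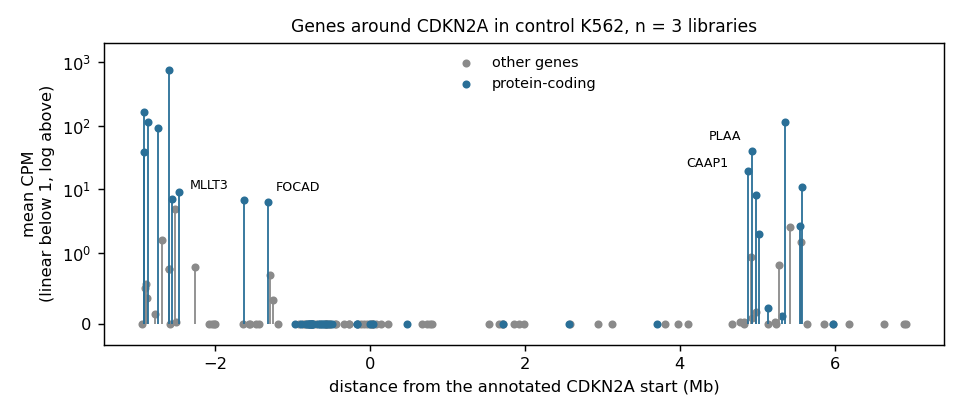
Mean CPM of the genes around CDKN2A against the distance of their lower coordinate from that of CDKN2A in Mb, on an axis that is linear below 1 and logarithmic above, with protein-coding genes in blue. FOCAD (6.24 CPM) and CAAP1 (19.3 CPM) stand at the ends of a 5.86 Mb run of identifiers at 0.

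Antigen presentation genes were split. The classical MHC class I heavy chain genes HLA-B and HLA-C had 3, 7 and 3 and 6, 17 and 8 counts in libraries 1, 2 and 3, so neither was detected, and library 2 was the highest for both. The shared light chain B2M had 220 ± 3.14 TPM and the nonclassical HLA-E 114 ± 0.935 TPM. The chaperones CALR (705 ± 22.6 TPM) and CANX (669 ± 7.45 TPM) were high, the peptide transporter TAP1 had 10.9 ± 1.09 TPM, and NLRC5, the activator of class I genes, had 0, 3 and 9 counts. In the class II list 2 of 12 were detected, CD74 and CIITA, each with most reads on the opposite strand in the library counted by strand (71.4% and 89.7%). Ligands of NK receptors were present: NCR3LG1 had 56.6 ± 1.07 TPM, MICB 45.7 ± 1.96 TPM, MICA 22.7 ± 1.94 TPM and ULBP1 6.76 ± 0.779 TPM.

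Some genes normally limited to germ cells or the embryo were among the abundant ones, though as groups they were detected about as often as coding genes in general. Of 28 cancer-testis antigens in the table, 17 were detected (60.7%, against 59.0% of all protein-coding genes). PRAME (chr22:22547701-22559361) had 1328, 1359 and 1387 TPM, above 99.8% of protein-coding genes. SSX1 had 278 ± 9.23 TPM, MAGEB2 203 ± 14.0 TPM, MAGEA3 167 ± 1.98 TPM and PAGE5 158 ± 4.52 TPM, while CTAG1B and SSX4 were at 0. Members of the MAGE, GAGE, SSX and CTAG families share sequence, so single levels, those at 0 included, are uncertain. In the oncofetal list 7 of 12 were detected (58.3%), and HMGA1 led. The mRNA-binding proteins IGF2BP1 (177 ± 0.216 TPM), IGF2BP2 (100.8 ± 3.07 TPM) and IGF2BP3 (63.1 ± 0.933 TPM) came in that order, each apart from the next by more than its SD. IGF2 was at 0 with 75% of its exon bases shared. MYC had 379 ± 2.92 TPM, and 10 of 11 genes of its network were detected, MYCN being at 0. Chromatin regulators were detected in 20 of 20 cases. Among them EZH2 (177 ± 3.13 TPM), DNMT1 (172 ± 1.79 TPM) and DNMT3B (168 ± 3.21 TPM) stood close together and DNMT3A, the other de novo DNA methyltransferase, had 2.31 ± 0.277 TPM.

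Surface receptors were detected in 23 of 30 cases. After TFRC, the integrin chains ITGB1 (215 ± 1.19 TPM) and ITGA5 (120 ± 5.34 TPM), which pair as a fibronectin receptor, were the highest of the integrins listed, and ITGA4 had 0.605 ± 0.229 TPM. FCGR2A, an Fc receptor, had 91.1 ± 5.42 TPM. IGF1R, whose locus also gives the IRAIN transcript, had 7.87, 7.75 and 7.91 TPM, and INSR 0.992 ± 0.113 TPM. The immediate early genes, induced within minutes by growth signals, were detected in 15 of 17 cases, from JUND at 228.5 ± 7.85 TPM and EGR1 at 94.0 ± 1.13 TPM to FOS at 26.6 ± 1.29 TPM and NR4A1 at 2.48 ± 0.281 TPM.

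Housekeeping groups were almost completely detected. All 79 cytosolic ribosomal protein genes were, with a median of 470 TPM and a share of 3.89% ± 0.0468 of the counts, but single members ranged from RPS12 at 2236 TPM to RPL17 at 3.68 ± 0.119 TPM. Many of these genes have processed pseudogenes of nearly the same sequence, so low single levels are uncertain. Of 16 translation factors 15 were detected, and EEF1G was at 0 with 99.9% of its exon bases shared. EEF1A2, the form of EEF1A1 used in nerve and muscle, had 162 ± 6.87 TPM. All 20 glycolysis genes were detected, led by ENO1 (1246 ± 24.6 TPM) and GAPDH (969.7 ± 14.2 TPM). LDHB (524 ± 11.5 TPM) exceeded LDHA (328 ± 11.3 TPM), HK1 (352 ± 1.09 TPM) exceeded HK2 (66.2 ± 1.86 TPM), and PKLR, the pyruvate kinase of liver and red cells, had 96.3 ± 1.95 TPM beside 219 ± 1.49 TPM for PKM. ALDOA had 3.54 ± 0.884 TPM with 53.5% of its exon bases shared. All 15 heat shock genes were detected, with HSP90AA1 at 938 ± 6.14 TPM, HSPA8 at 786 ± 12.4 TPM and the stress-inducible HSPA1A at 73.2 ± 0.577 TPM. Replication-dependent histone genes, whose mRNAs usually end without a poly(A) tail, had a median of 855 TPM, with 17 of 18 detected.

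By transcript class, protein-coding genes took 92.8% ± 0.0621 of the counts. Long intergenic noncoding RNAs took 3.38% ± 0.0381, and MALAT1 alone made up 58.4% of that, while 832 of 7423 such genes (11.2%) were detected. After MALAT1 and NEAT1, AC079466.1 was the highest of the class at 835 ± 10.4 CPM. Processed pseudogenes took 0.895% ± 0.00610, with 946 of 10195 detected (9.28%), headed by EEF1A1P5 at 1042 ± 11.2 CPM and RPL13AP5 at 309.7 ± 9.13 CPM, copies of 2 abundant mRNAs. Antisense genes took 0.792% ± 0.00382, with 1017 of 5472 detected (18.6%) and KCNQ1OT1, the imprinted antisense RNA of chromosome 11, at 392 ± 5.46 CPM. The counts ignore strand, and in the library counted by strand 63.8% of detected antisense genes, 53.7% of detected processed pseudogenes and 22.6% of detected intergenic RNAs had most reads on the opposite strand, against 6.72% of detected protein-coding genes. Miscellaneous RNAs took 0.425% ± 0.0377, of which RN7SL2 was 86.2%.

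Genes on the mitochondrial genome held 2.78%, 2.60% and 2.46% of the counts in libraries 1, 2 and 3. This share was highest in library 1 and lowest in library 3. All 13 mitochondrial mRNAs were detected, and the ribosomal RNAs MT-RNR1 and MT-RNR2 had only 1.58 ± 0.691 and 0.694 ± 0.2 CPM. MT-ND5 had 67.7% of its reads on the opposite strand in the library counted by strand, and MT-ND6 lies next to it on the other strand. Small structural RNAs were mostly low: 5 of 21 were detected, 9 were below the detection level, and 7 were at 0, RN7SK, RN7SL1, RMRP, RPPH1, RNU2-2P, RNU12 and SCARNA2, each with at least 98.5% of its exon bases shared with another gene. Among nuclear long noncoding RNAs 16 of 19 were detected, NORAD at 487 ± 1.77 TPM and GAS5 at 194 ± 2.66 TPM, and HOTAIR, MEG3 and H19 were not detected.

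**Figure D4:**
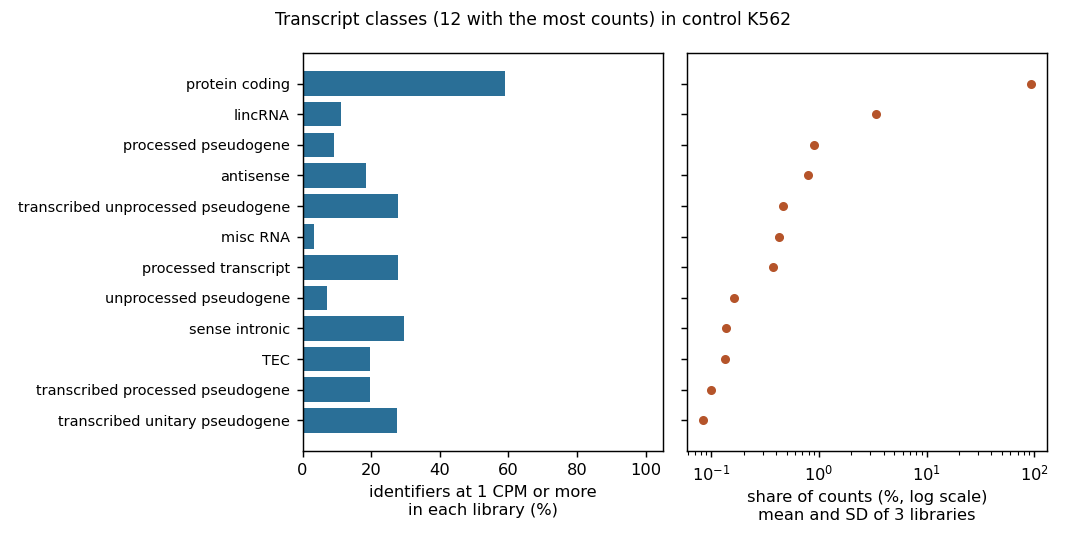
Left, share of identifiers at 1 CPM or more in each library for the 12 classes with the most counts. Right, share of counts (log scale), mean and SD of 3 libraries. Protein-coding genes led both, with 59.0% detected and 92.8% of the counts.

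Silent genes were unevenly spread. Of the 3911 protein-coding genes at 0, 570 (14.6%) have over 50% of their exon bases covered by another gene, where reads were not assigned. Of all 415 protein-coding genes with over 95% covered, 377 were at 0. All 18 protein-coding identifiers of the pseudoautosomal regions of X, among them the cytokine receptor chains IL3RA and CSF2RA, were at 0 as well. Another 2897 had less than 5% of their bases covered and no pseudoautosomal copy. The longest run of neighbouring coding genes with 3 counts or fewer each was 66 genes over 9.02 Mb of chromosome 11, mostly olfactory receptors, with 3 counts in all. Similar runs covered 47 keratin and keratin-associated genes on chromosome 17 and 36 genes, mostly keratin-associated, on chromosome 21. There followed 35 genes, mostly of the cornified envelope of skin, on chromosome 1 and 31 genes, nearly all protocadherins, on chromosome 5. By chromosome, the detected share of protein-coding genes was lowest on 21 (45.2%), X (48.0%) and 4 (51.4%) and highest on 15 (64.0%) and 16 (63.7%).

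The control libraries differed little. Pearson correlations of log2 levels between pairs of libraries were 0.996 across the 16085 detected genes, which are not independent replicates. In each pair 61.5% to 62.8% of these genes lay within 10% of each other, and 674 to 727 differed by over 1.5-fold. The median coefficient of variation (CV) was 14.0% for genes at 1 to 10 CPM, where the CV expected from counting error is 16.6%. It was 4.65% at 10 to 100 CPM (counting error 4.84%) and 2.25% at 100 to 1000 CPM (counting error 2.24%). With only 3 libraries the median CV falls below the expected one even without other spread. A median CV near that of counting error therefore does not mean that counting error was the only spread. Over all genes, pairs of libraries differed by more than counting error (chi-square per degree of freedom 1.36 to 1.53). Above 1000 CPM the median CV was 1.30%, beyond the 0.767% of counting error. The CV of the libraries beyond counting error, from the common dispersion of edgeR, was 2.04%.

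Single genes were tested for a spread beyond counting error with the Poisson goodness of fit of edgeR and Benjamini-Hochberg adjustment over 18095 genes. The test called 50 genes, or 0.276%, and 2051 had an unadjusted p under 0.05. Mitochondrial genes made up 12 of the 50: 12 of 15 tested (80.0%) were called, against 38 of 18080 others (0.21%). The test finds a given spread more readily at high counts, and most of the others had far fewer counts. These shares are therefore not at like depth. Tested without the mitochondrial genes, 22 of these 38 were still called, and the other 16 had adjusted p of 0.0503 to 0.0653 (edgeR). MT-CO2 had 3080, 2718 and 2560 CPM (adjusted p = 1.07e-127 in edgeR) and MT-ND4 3590, 3326 and 3036 CPM (adjusted p = 9.91e-117 in edgeR). Of the 12, 11 were highest in library 1 and all 12 were lowest in library 3, as was MTATP6P1, a nuclear copy of mitochondrial DNA, with 167, 148 and 132 CPM (adjusted p = 1.83e-08 in edgeR). Without library 1 the count of called genes was 20. Allowing the trended dispersion of the same libraries left 10 calls, 8 of them mitochondrial, with RN7SL2 and MTATP6P1.

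Outside the mitochondrial genome RN7SL2 had the lowest adjusted p (5.86e-195 in edgeR), with a CV of 10.2%. MALAT1 came next (adjusted p = 8.07e-20 in edgeR) at a CV of only 1.47%, and NEAT1 and HIST1H1C were also called. Among called genes with a mean of at least 5 CPM the largest excess spread was that of AC090953.1, a processed pseudogene, with 60, 85 and 37 counts (adjusted p = 0.0449, and 0.0622 without mitochondrial genes, in edgeR). ZNF594, a zinc finger gene, had 4.54, 9.48 and 8.45 CPM (adjusted p = 0.00676 in edgeR), with library 1 low. GNPTG, a subunit of the enzyme that tags lysosomal proteins, had 19.4, 12.6 and 14.1 CPM, with library 1 high (adjusted p = 0.0349, and 0.0503 without mitochondrial genes, in edgeR). ANAPC11, the RING subunit of the anaphase-promoting complex, had 42.4, 54.9 and 55.4 CPM, with library 1 low (adjusted p = 0.00192 in edgeR). TMA16 and TPD52L1 were highest in library 1, and DMWD and STARD3 in library 2, and TPD52L1, DMWD and STARD3 were no longer called without mitochondrial genes. Of the 79 ribosomal protein genes 6 were called, beside 0.276% of all tested genes, among them RPLP2 with 466, 516 and 503 CPM, again lowest in library 1. Most tested genes had fewer counts than these, and the test finds a small spread more readily at high counts. The share of all tested genes is therefore not a like background for them. FTL, the one called gene of the erythroid lists, had 953, 981 and 913 CPM (adjusted p = 0.000461 in edgeR), a CV of 3.57%.

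**Figure D5:**
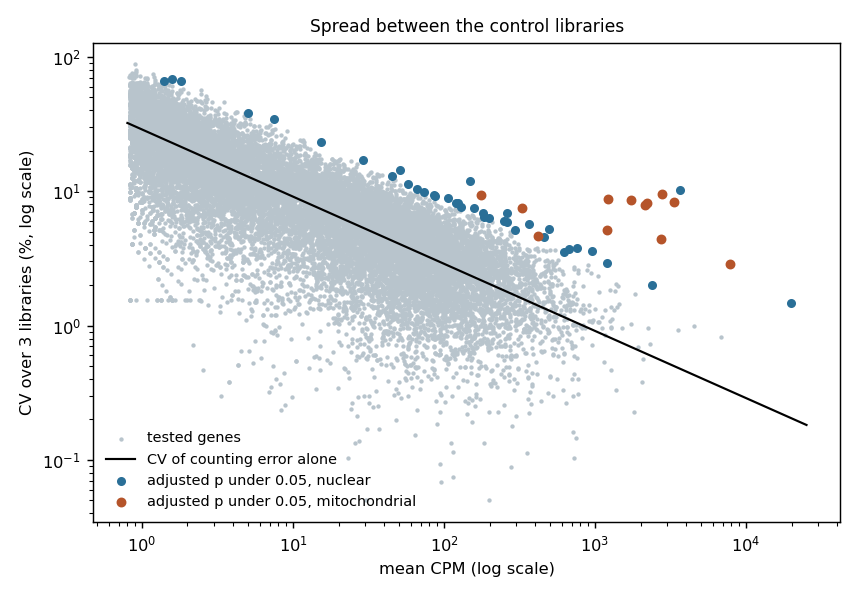
CV over the 3 libraries against mean CPM, both on log scales, for 18095 tested genes, with the CV of counting error as a line. Most genes lie around the line, and the 12 called mitochondrial genes (brown) and 38 called nuclear genes (blue) lie above it.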

How the data were processed

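Libraries were made from total RNA with TruSeq RNA kits, per the labels' protocols. The submitters' processing notes name the aligner STAR and the build hg38 (GRCh38), with its version and the gene annotation not given in the sources used here. For the 6 libraries the authors deposited raw counts per gene, neither normalized nor split by strand. A second deposited table holds counts by strand of 1 library without a name, equal to over-expression replicate 2 at all 58440 identifiers, and was used only to describe strand. In it 1851919 reads fell on more than 1 gene (12.5% of counted and such reads), and 15.1% of counts lay on the minor strand.

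Identifiers were matched to GENCODE 29 (58320 of 58440), which gave classes, coordinates and exon lengths. CPM used TMM factors of the 3 controls (edgeR 4.0.16, R 4.3.3), and TPM the merged exon length. The control columns carry a number but not the labels' name, so they were assigned to the group as a whole, and each counted as a sample. Pairs of them differed by more than counting error (chi-square per degree of freedom 1.36 to 1.53), so none is a copy of another, which does not tell separate cultures from technical repeats. Spread was tested, one-sided, on genes with at least 30 counts over the libraries, by a Poisson fit with an intercept alone. Tested on simulated data for this group, it recovered 8.5%, 34.0%, 66.5% and 92.0% of genes given an extra CV of 5%, 10%, 20% and 40%. Of the genes called there, 0%, 8.11%, 3.62% and 6.12% had been given no extra CV. The extra CV was given only to genes with counts well above the minimum of 30, so recovery near that minimum was not measured.

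Named genes were the 10 with most counts, the 20 coding genes highest in TPM, the 3 highest of each class, members of the marker and function lists (the highest, those at 0, those that define a cell) and the 10 called genes with the largest excess CV at 5 CPM or more. The members and lists were chosen with earlier results of these data known. Genes named beside these, such as PRKDC, GLUL and flanks of the 9p21 run, were chosen after their values were seen, and results of a few list members are not reported here. Alternatives were other scaling, detection levels, count minimums, dispersion and lengths, and leaving out each library.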

Additional observations from a re-analysis of the deposited data

How the results depend on the processing

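Of 58440 identifiers, 16085 were detected at 1 CPM, 18712 at 0.5 CPM and 11340 at 5 CPM, and scaling by relative log expression or by totals left the number at 16085. Leaving out each library gave 16402 to 16535 detected, 26749 to 26855 at 0 and 83 to 84 lineage markers detected. The number of genes varying beyond counting error was 50, and 20 to 48 when 1 library was left out, lowest without library 1. It was 10 with a trended dispersion, and 22 without mitochondrial genes, an alternative chosen after seeing the data. The cause was not tested. Without mitochondrial genes the 10 most abundant genes took 5.06% of the counts in place of 5.73%, and protein-coding genes 92.63% in place of 92.82%. Of the 17 marker lists taken singly, the number detected moved by over 1.5 times in 6 at 5 CPM and 3 at 0.5 CPM, and in 1, the liver list (1 detected in place of 0), without library 1. With the longest transcript as the length, 19 of 20 levels per kilobase moved by more than 1 SD, and with exon bases of no other gene, also chosen after seeing the data, 13 of 20. Across 11751 genes the ratio of the 2 lengths' levels ran from 0.777 to 1.76 (5th to 95th percentile). No paired analysis was possible because all results come from a single group. Depth limits genes at 0 to 0.0831 CPM over the group.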
